A study of Mus musculus with 6 samples.

Results

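Exons of genes other than the large zinc finger, olfactory receptor, vomeronasal receptor and clustered protocadherin families held 4010 of the 202553 regions at which H3K9me3 was counted in mouse quadriceps femoris, which is 1.98% of them. H3K9me3 is trimethylation of lysine 9 of histone H3. The members were the autosomal regions that the deposited table annotates as Exon and whose gene symbol does not begin with Zfp, Zkscan, Zscan, Zik1, Olfr, Vmn, Pcdha, Pcdhb or Pcdhg. Of 4170 Exon regions, 4156 were autosomal, 143 of these were left out by family name, and 3 more were left out because they lie within chr10:4611989-5005633, the span around Esr1. The choice used position, annotation and name but no count, and it was made with earlier results of these data known. At the edges of that span, the Akap12 region below it had 34, 45 and 43 counts in the Prr14-WT libraries and 14, 46 and 43 in the Prr14-KO libraries. The Esr1 region inside had 11, 3 and 3 against 198, 71 and 70. The others inside, listed under Syne1, had 4, 8 and 2 against 81, 39 and 60, and 1, 2 and 7 against 148, 53 and 59. The Syne1 region above had 0, 5 and 19 against 2, 6 and 6.

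The mark was profiled by CUT&Tag, in which an antibody directs a transposase to cut and tag the DNA around the marked nucleosomes, on frozen muscle of mice with an intact Prr14 gene (Prr14-WT, 3 libraries, replicates 3, 4 and 8) and of Prr14 knockout mice (Prr14-KO, 3 libraries, replicates 4, 5 and 7). The labels give no age, allele or construct for either genotype and no treatment. Whether the libraries come from separate mice is not stated, so p-values measure the spread between these libraries, which may be partly technical. A histone mark reports neither the loss of Prr14 nor the cell types in the muscle, so neither label could be checked here.

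H3K9me3 is best known as a mark of constitutive heterochromatin, where it is bound by HP1 proteins and keeps repeats silent. Inside genes it is known from the 3′ exons of zinc finger genes, and less is said of other exons. PRR14 sits at the nuclear lamina and, through HP1, tethers heterochromatin carrying this mark to the edge of the nucleus.

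Sequence could be read for the members that hold a promoter window of another gene model, and 3 such windows are printed below. In RefSeq's GRCm38.p6 table, 30 promoter windows overlapped 29 members, and the 250 bases before the start site lay wholly inside a member for 5 of them. Of these 5, the windows with the most and the fewest CG are printed. The others, in exon regions of Rasa3 and Ccdc40, held 8 and 9 CG. The windows below are written 5′ to 3′ on the strand of the noncoding gene model named, with CG dinucleotides, the sites of DNA methylation, in capitals. The Cilp2 window is at chr8:69883175-69883424 on the plus strand and belongs to Gm33746. The Myof window is at chr19:37985836-37986085 on the plus strand and belongs to Gm52397. The Slc22a6 window is at chr19:8621358-8621607 on the minus strand and belongs to Gm36394.
Cilp2: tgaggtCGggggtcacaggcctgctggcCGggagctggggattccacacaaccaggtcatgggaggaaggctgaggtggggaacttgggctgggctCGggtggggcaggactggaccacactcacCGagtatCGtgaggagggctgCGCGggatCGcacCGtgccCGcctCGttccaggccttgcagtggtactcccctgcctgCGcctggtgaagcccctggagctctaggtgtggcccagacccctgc
Myof: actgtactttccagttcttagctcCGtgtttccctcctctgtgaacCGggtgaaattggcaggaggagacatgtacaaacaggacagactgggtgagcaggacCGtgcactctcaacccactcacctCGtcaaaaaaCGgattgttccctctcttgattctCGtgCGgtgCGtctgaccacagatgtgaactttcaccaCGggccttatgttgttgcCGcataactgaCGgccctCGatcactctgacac
Slc22a6: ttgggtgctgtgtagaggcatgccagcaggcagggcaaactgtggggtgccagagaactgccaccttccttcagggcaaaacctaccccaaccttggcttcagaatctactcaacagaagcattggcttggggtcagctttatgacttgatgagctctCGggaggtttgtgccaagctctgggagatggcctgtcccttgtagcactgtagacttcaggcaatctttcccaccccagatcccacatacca

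The Cilp2 window, in an exon region of a cartilage matrix gene, held 12 CG and 67.6% G and C. The Myof window, in an exon region of myoferlin, which acts in membrane repair and myoblast fusion, held the same number of CG at 52.4% G and C. The Slc22a6 window, in an exon region of a renal organic anion transporter, held 1 CG at 54.0% G and C. Over all 32851 windows of the same length, the median was 6 CG and 52.4% G and C, 92.1% held at least 1 CG, 33.5% held 12 or more, and 18.8% held 1 or none. The Cilp2 and Myof windows held the same number of CG, and the regions around them differed in their counts. The CG of the whole regions were not counted. The Cilp2 region (chr8:69882760-69883482) had 62, 64 and 64 counts in wild types and 57, 45 and 67 in knockouts. The Myof region (chr19:37985828-37986324) had 14, 23 and 11 against 8, 22 and 15. The Slc22a6 region (chr19:8621212-8621764) had 17, 36 and 28 against 11, 12 and 13. Every knockout was below every wild type there, as at 4.91% of all regions tested, and the adjusted p in edgeR's test was 0.998.

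The libraries held between 4324444 and 4756133 counts over all regions, of which 86754 to 94901 lay in the members. The median member had 14 to 17 counts per library, and 17 to 53 members had none. At this depth a single region is measured with a wide counting error, and small differences at single exons were not detectable. Levels are given as CPM, the count scaled to a common library total with TMM factors, and densities as CPM per kb of region. No spike-in is named in the sources used here, so a change shared by all regions would be scaled away.

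The symbol in the table is not always that of the gene whose exon was counted. Of the 4010 members, 2784 (69.4%) matched an exon of a transcript of the named symbol, 910 matched only exons of another gene, and 316 could not be matched. For example, exons of Slit3, a secreted axon guidance ligand, and of Csmd1, a large membrane protein with CUB and sushi domains, were listed under Pank3 and Myom2. RefSeq types the symbols of 3927 of the 4010 members (97.9%) as protein coding and those of 29 as other kinds, and does not list those of 54. By the exon's gene or an overlapping RefSeq span, 12 members lay in genes with a left-out name after all, among them Zfpm2, Zfp618 and Zfp407. Zinc finger genes with other names, such as Sall3, are not in this 12 and held 57 members. Below, a gene named after an exon is the one that holds it.

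The members carried 2761 symbols, 2040 of which (73.9%) had a single region. No symbol was given for 9 members. The widths ran from 141 to 5662 bp, with a median of 322 bp and quartiles of 205 and 543 bp, and the members covered 1688 kb in all. The share of regions of 1 kb or more was 5.14% (206 members) against 5.39% of all regions in the table. A total of 9 members reached 2 kb: those of Flg2 (5662 bp), Plec (3486 bp), Sall3 (3241 bp), Sp110 (2287 bp), Gm21411 (2192 bp), Clspn (2133 bp), Pdgfrb (2070 bp), Efcab6 (2006 bp) and Tnni3k (2006 bp). Several of the genes behind the widest regions have single very long coding exons, as Flg2 and Plec do. By chromosome, the members were 1.09% of the regions of chromosome 3 and 1.10% of those of chromosome 12, and 3.01% of chromosome 7 and 3.61% of chromosome 11.

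Member regions lay late in their genes. The median distance to the start site given in the table was 19196 bp, with quartiles of 8757 and 47649 bp. Of 2942 members whose midpoint lay within the span deposited for the named gene, 42.8% fell in the last 30% of it and 12.4% in the first 30%. Of 36707 intron regions placed in the same way, 19.5% fell in the last 30% and 34.8% in the first 30%. A region close to a start site is annotated as promoter in the table and so is not counted as an exon, and exons are not spread evenly along genes, so the positions describe the annotated class and were not tested. Late and early members carried similar signal: the median density was 10.2 CPM per kb in the last 30% and 9.91 in the first 30%, at median widths of 322 and 353.5 bp.

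**Figure D1:**
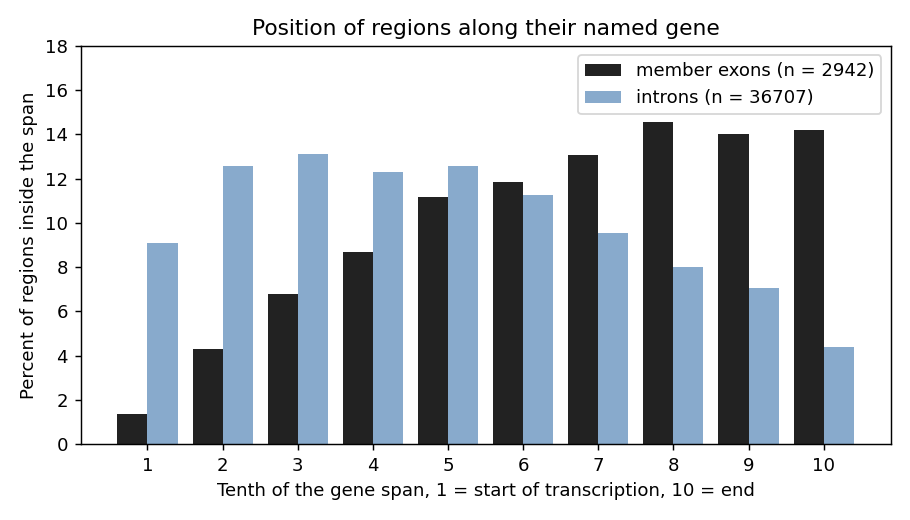
Percent of regions (vertical axis) in each of 10 equal bins of the named gene's span in the direction of transcription (horizontal axis), for 2942 member exon regions (black) and 36707 intron regions (blue). Exon regions rise from 1.36% in the first bin to 14.2% in the last, and intron regions fall from 13.1% in the third bin to 4.42% in the last.

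The next comparison asked whether exons carried a different density of the mark from other parts of the genome within the same libraries. By the median region, no difference between the members and another class passed the test after adjustment. With 6 libraries the exact sign-flip p cannot go below 0.03125. A difference could therefore pass only if most of the 5 comparisons reached that floor. Introns and intergenic regions were closest to the members, and the zinc finger exons were farthest from them. The median density of the members was 9.01, 9.15 and 10.3 CPM per kb in wild types and 8.61, 10.5 and 10.8 in knockouts (9.73 ± 0.912, SD, n = 6). Introns had 9.70 ± 0.400 and intergenic regions 9.88 ± 0.0719 (SD, n = 6). The mean log2 ratio of members to introns was 0.00 ± 0.08 (SD, n = 6; exact sign-flip test over libraries, two-sided, p = 0.969), and that of members to intergenic regions was -0.03 ± 0.14 (n = 6, exact p = 0.656, 0.820 adjusted over 5 such comparisons). By this median, members were above introns in 3 of 6 libraries, and both genotypes were found on each side. By the sum of CPM over the sum of kb, which strong regions weigh on more, members had 11.7 ± 0.555 and introns 10.99 ± 0.219 CPM per kb (SD, n = 6), with members above in 6 of 6 libraries. That measure was not tested.

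The 109 zinc finger exon regions had 13.6, 15.3 and 13.7 CPM per kb in wild types and 14.97, 13.5 and 12.7 in knockouts. The members were below them in 6 of 6 libraries, by -0.52 ± 0.22 on the log2 scale (SD, n = 6), with an exact p of 0.03125, the smallest that 6 libraries allow, and 0.0781 after adjustment over the 5 comparisons. The members were above regions annotated as UTR, 9.35 ± 0.999 CPM per kb (SD, n = 6), in 6 of 6 libraries, by 0.06 ± 0.03 on the log2 scale with the same exact p and adjusted value. Neither difference passed 0.05 after adjustment, and with only these at the smallest p neither could. By the summed density, the zinc finger exons were again above the members in 6 of 6 libraries (14.7 ± 1.23 CPM per kb, SD, n = 6), but the UTR regions were also above them in 6 of 6 (13.4 ± 0.631), the opposite of the direction by the median. Without regions under 500 bp, the difference from UTR regions was 0.01 with an exact p of 0.844.

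The 6 libraries did not hold the same density at the members, and the order was not that of the genotypes. Prr14-KO replicate 4 was lowest and Prr14-KO replicate 7 was highest, with the 3 wild types and Prr14-KO replicate 5 between them. Zinc finger exons ran the other way, with Prr14-KO replicate 7 lowest. Prr14-KO replicate 7 held the highest CPM of the 6 libraries at 20.7% of the members, and Prr14-KO replicate 4 at 11.2%. The part of this difference between libraries in the genotype comparisons below was not tested beyond leaving each library out. As a share of each library's counts, the members had 1.90%, 1.94% and 2.05% in wild types and 1.84%, 2.06% and 2.07% in knockouts (1.96% ± 0.0745 against 1.99% ± 0.127, SD, n = 3 each), and the genotypes overlapped. In bulk muscle, fewer cells carrying the mark and less of it per cell cannot be told apart.

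For the next comparison, genes were taken by the listed symbol, which for some exons is not the gene holding them. Within genes that had both kinds of region, exons and introns were also close. Over 1844 such genes, the median log2 ratio of exon to intron density was -0.09, -0.07 and -0.03 in wild types and -0.05, -0.01 and 0.00 in knockouts. The mean was -0.04 ± 0.04 (SD, n = 6), with an exact sign-flip p of 0.0625 and 0.104 after adjustment over the 5 comparisons. The difference did not pass the test.

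**Figure D2:**
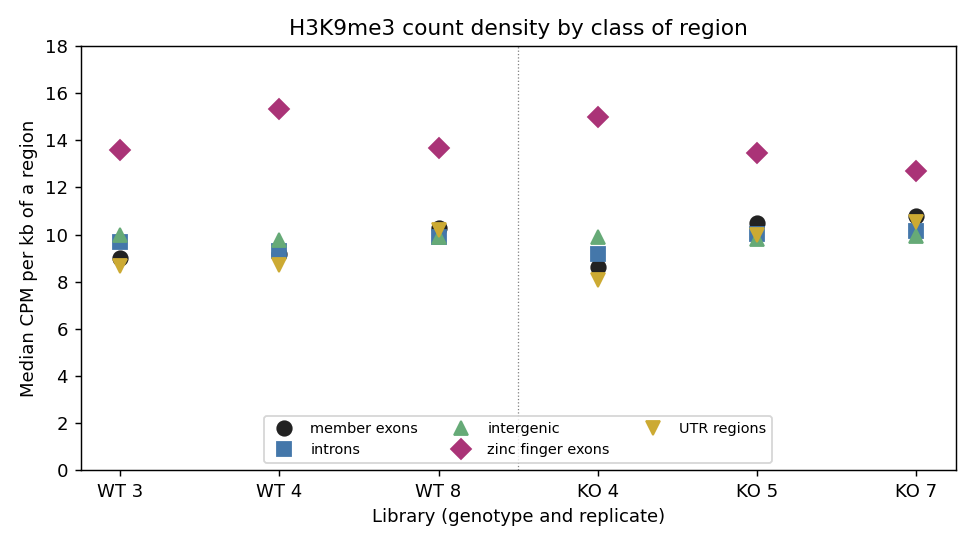
Median CPM per kb of a region (vertical axis) in each of the 6 libraries (horizontal axis), for member exons, introns, intergenic regions, zinc finger exons and UTR regions, 1 point per class and library. Zinc finger exons lie between 12.7 and 15.3, above the other 4 classes in all 6 libraries, while member exons lie between 8.61 and 10.8.

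Signal at most members was low and a few loci held much of it. The median member had 3.25 CPM, with quartiles of 2.27 and 5.03, while 48 members were over 20 CPM and 9 were over 100. The 10 strongest members held 11.5% of the CPM in all members. The 6 exon regions of Sfi1, a centrin-binding protein of the centrosome, held 8.10% alone, and the 12 exon regions of Mroh2a, a HEAT repeat protein, held 2.16%.

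The strongest member was an exon region of Sfi1 at chr11:3170585-3172527. It had 369, 402 and 369 CPM in wild types and 372, 344 and 330 in knockouts. The second locus was an exon region of Sp110, a nuclear body protein of the interferon response, at chr1:85591148-85593434, with 329, 315 and 310 against 332, 287 and 294 CPM. At both, the genotypes overlapped. Sfi1 and the Sp100 and Sp110 family are known to have near-identical copies in the mouse genome. The sources used here do not give how reads with several matches were treated, and the levels of both are uncertain for that reason.

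The Flg2 region at chr3:93210627-93216288, in a large repetitive exon of an epidermal barrier protein, had 173, 190.5 and 179 CPM in wild types and 230, 169 and 172 in knockouts. The Plec region at chr15:76174153-76177638, in plectin, which links intermediate filaments to other structures and anchors the desmin network of muscle fibres, had 111, 129 and 105 against 142, 108 and 111 CPM. Prr14-KO replicate 4 was highest at both. The other knockouts were just below the wild types at Flg2 and among them at Plec. The Sall3 region, in a developmental zinc finger factor whose name falls outside the left-out families, had 64.1, 68.2 and 61.7 against 74.99, 62.9 and 50.5 CPM, with Prr14-KO replicate 4 again highest.

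Among the next strongest were exon regions of the gene model D130052B06Rik at 47.8 CPM on average, Cacna1a at 37.5, Shroom3 at 34.9, Jph3 at 32.1 and Slit3 at 31.1 CPM. Cacna1a encodes the pore of the P/Q-type calcium channel of neurons, Shroom3 an actin-binding protein of apical constriction, and Jph3 a junctophilin of neurons. A region listed under Fam186a at chr15:99943431-99945396 matched no transcript's exon and overlaps Fam186a and Gm21917 in RefSeq. It was the only one of these 12 loci with every knockout below every wild type, a pattern seen at 4.91% of all regions tested. It had 46.8, 54.2 and 47.9 CPM in wild types and 46.5, 35.1 and 35.0 in knockouts, and its log2 change of -0.35 (SE 0.17) had an adjusted p of 0.998 in edgeR's quasi-likelihood test.

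**Figure D3:**
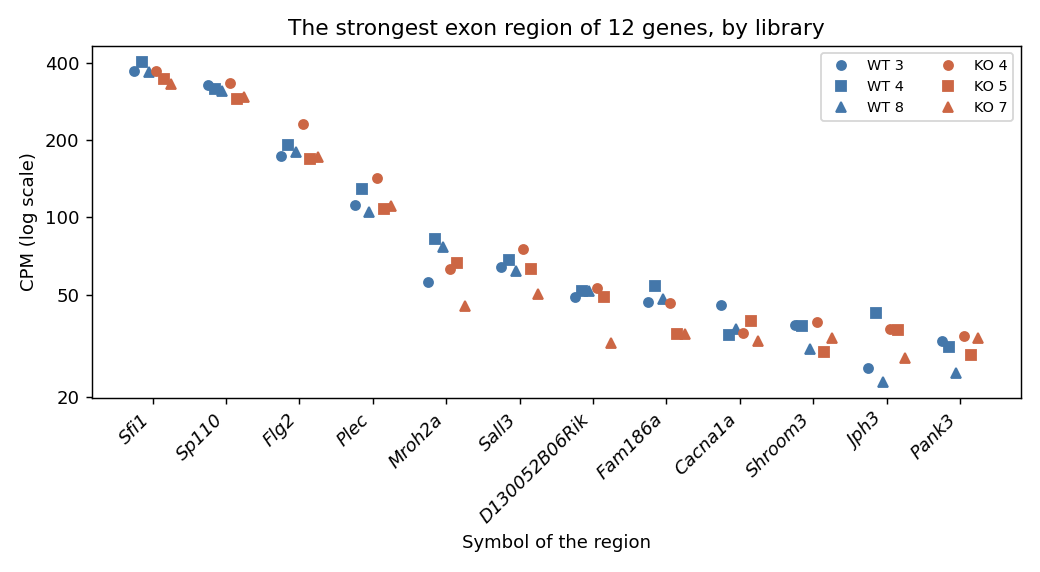
CPM (vertical axis, log scale) of the strongest exon region under each of 12 symbols (horizontal axis), 1 point per library, wild types in blue and knockouts in orange. The levels fall from 364 CPM on average at Sfi1 to 31.1 CPM at the region listed under Pank3, which lies in Slit3, and at most loci the genotypes overlap.

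The surroundings of the strong exon regions differed. At Sfi1 and Mroh2a, regions outside the exons were dense too: 28 neighbours within 50 kb of the Sfi1 exon regions had a median of 267 CPM per kb against 253 over the exons, and 23 neighbours of the Mroh2a exon regions had 48.4 against 66.9. At Sp110 the exon region had 136 CPM per kb against a median of 9.81 in 15 neighbours. The Plec region had 33.8 against 10.9, the D130052B06Rik region 71.0 against 11.6, the Flg2 region 32.8 against 14.4 and the Sall3 region 19.7 against 12.1 CPM per kb. The Jph3 region, at 17.0 CPM per kb, was no denser than the 19.7 around it. These densities describe loci picked for high counts and were not tested.

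Some genes had runs of exon regions. By the gene that holds the exon, the members fell in 2689 genes, 61 of which had 5 or more, and 16 of these 61 had more exon than intron regions. Ttn had the most members. It encodes titin, the giant spring protein of the sarcomere, and held 23 exon regions and 1 intron region. Mroh2a had 12 exon regions and 1 intron region, and Otog, an inner ear matrix protein, had 8 and 1. Most of the other long genes had more intron regions: Csmd1 had 17 and 192, the ryanodine receptor genes Ryr3 and Ryr2 had 16 and 43 and 10 and 53, Csmd2 had 14 and 57, and Dnah9, a dynein of motile cilia, had 13 and 17. Exon and intron lengths were not used here, so these numbers are not rates per base.

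The 23 exon regions of Ttn spanned chr2:76709838-76975292, and density differed along them. The 8 regions nearest the 3′ end, which the table lists under Plekha3, had 13.4 to 21.2 CPM per kb with a median of 17.99. The other 15, toward the 5′ end, had 5.79 to 13.8 with a median of 7.62. Summed over the 8 regions at the 3′ end, the wild types had 79.1, 62.8 and 74.5 CPM and the knockouts 73.3, 75.6 and 69.8. Summed over the other 15, the wild types had 56.0, 42.6 and 43.6 CPM and the knockouts 40.7, 35.6 and 75.8. The genotypes overlapped in both stretches. Prr14-KO replicate 7 had the highest CPM at 8 of those 15 regions and at 1 of the 8 at the 3′ end. It had 18 counts at the most 5′ region (chr2:76975100-76975292), where the others had 5, 1 and 5 in wild types and 4 and 0 in knockouts. Over all 23 regions, the sums were 120 ± 14.9 CPM in wild types and 124 ± 19.1 in knockouts (SD, n = 3 each, exact permutation test, two-sided, p = 0.70, where 3 against 3 cannot go below 0.10). Of the 23, 16 passed the filter on low counts, and none of these passed the test across all regions, which 0.013% of all regions did.

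**Figure D4:**
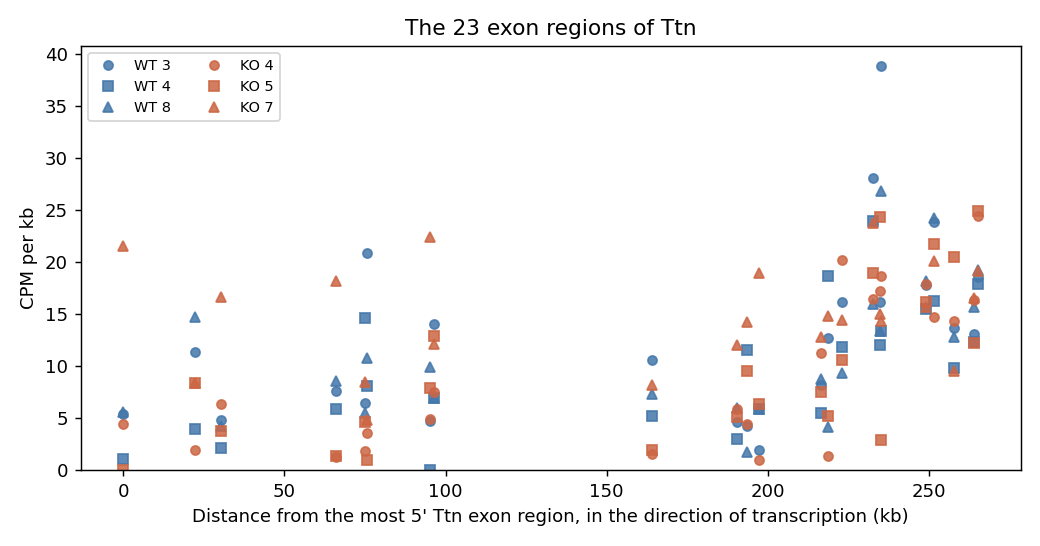
CPM per kb (vertical axis) of the 23 exon regions of Ttn by distance along the gene from the most 5′ of them (horizontal axis, kb), 1 point per region and library, wild types in blue and knockouts in orange. Regions near the 3′ end, at the right, mostly lie between 10 and 25 CPM per kb, while those to the left are lower and more scattered, with Prr14-KO replicate 7 (orange triangles) often highest.

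The 12 exon regions of Mroh2a at chr1:88230485-88252560 ran from 12.04 to 64.97 CPM. Their sum was 413, 459 and 487 CPM in wild types and 377, 430 and 395 in knockouts (453 ± 37.5 against 401 ± 26.6, SD, n = 3 each). By the fitted change, 10 of the 12 regions were lower in the knockout, but Prr14-KO replicate 5 lay above Prr14-WT replicate 3, so the genotypes overlapped. The fitted log2 change of the sum was -0.20 (SE 0.08), with an unadjusted p of 0.0141 and an adjusted p of 0.999 in edgeR's test across sums. The 6 exon regions of Sfi1 summed to 1527, 1804 and 1621 CPM against 1606, 1578 and 1468. All 6 were lower in the knockout by the fitted change, with a log2 change of the sum of -0.11 (SE 0.07) and an adjusted p of 0.999. At both loci the neighbouring exons share one dense locus and are not separate evidence.

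Among the 18 genes with 8 or more exon regions, the sums did not overlap between genotypes at 2, both named after their values were seen. Hydin, which encodes a protein of the ciliary axoneme, had 9 exon regions with 30.4, 29.9 and 28.7 CPM in wild types and 34.7, 39.1 and 38.3 in knockouts. Piezo2, the mechanosensitive channel of touch and proprioception, had 8 with 36.2, 36.8 and 32.0 against 40.3, 42.8 and 43.1 CPM. Over all single regions tested, 4.7% had every knockout above every wild type and 4.91% had every knockout below. No such share was taken over sums of regions. The exact permutation p was 0.10 at both, the smallest the design allows. No region of Hydin and 1 region of Piezo2 had an unadjusted p under 0.05.

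Genes of the contractile apparatus were read as one list of 48 genes, from titin and the myosins to the troponins and calcium release proteins. By the gene holding the exon, 57 members lay in 21 of them, beside 107 intron regions, or 53.3 exon regions per 100 intron regions. By the listed symbol, the list had 41.0 per 100, against 9.04 per 100 over all members and introns. Exon and intron lengths were not used, so these are not rates per base. Without Ttn the list had 34 exon regions. Outside Ttn, the calcium release channel Ryr1 had 8 exon and 6 intron regions. The median member of the list had 2.95 CPM and 10.1 CPM per kb. The 57 regions summed to 274, 231 and 274 CPM in wild types and 232, 247 and 303 in knockouts, and the genotypes overlapped.

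Of the 42 contractile members tested between genotypes, none passed an adjusted p of 0.05, and the median log2 change was -0.05. Unadjusted p-values under 0.05 were found at 4 of the 42, where 3.86% of all regions tested had one, and these 4 were named after their values were seen. A region of Myh3, the embryonic myosin heavy chain, at chr11:67094523-67094728 had 0.833, 0.861 and 1.08 CPM in wild types and 3.21, 3.47 and 3.23 in knockouts, a log2 change of 1.81 (SE 0.76) with an adjusted p of 0.998. A region of Myom1, an M-band protein, had 5.41, 5.17 and 3.45 against 4.07, 9.25 and 10.8 CPM, so the genotypes overlapped. The other pair lay in Ttn, with log2 changes of -0.995 and -1.12 and overlapping genotypes.

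The comparison of genotypes across all members asked whether loss of Prr14 changed the mark at these exons. No member rose or fell in the knockout at an adjusted p under 0.05. The 3 exon regions left out within the span around Esr1 are not part of this count. That of Esr1 itself had 11, 3 and 3 counts in wild types and 198, 71 and 70 in knockouts. The others, listed under Syne1, had 4, 8 and 2 against 81, 39 and 60, and 1, 2 and 7 against 148, 53 and 59. Of the 4010 members, 3068 (76.5%) passed the filter on low counts and 942 did not. The edgeR quasi-likelihood test on all 153789 regions that passed, with Benjamini-Hochberg adjustment over all of them, called 0 of the 3068 members and 20 regions elsewhere, which is 0.013% of all regions tested. The lowest adjusted p of a member was 0.413. DESeq2 and limma-voom also called 0 members, while the authors' deposited table gave 3288 members an adjusted p, with 0 under 0.05 and a lowest value of 0.99976.

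At an unadjusted p under 0.05 there were 166 members (5.41%) in edgeR's test, against 3.86% of all regions. Higher in the knockout were 101 members (3.29%, against 2.07% of all regions) and lower were 65 (2.12%, against 1.78%). All 3 knockouts were above all 3 wild types at 153 members (4.99%, against 4.7% of all regions) and below them at 128 (4.17%, against 4.91%). The unadjusted count depended on the libraries: without Prr14-KO replicate 4, which had the lowest density at the members, it was 277 (7.93%, against 5.05% of all regions), with 213 higher. Leaving out the other libraries gave 159 to 205 (4.72% to 6.15%, against 3.61% to 4.07% of all regions). With a mean count of 20 or more required, fewer members were tested and 78 of them were under 0.05 (6.08%, against 4.2025% of all regions).

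Changes at single members were small against their error. The median log2 change was 0.03 over the members and 0.00 over all regions tested, and the median standard error was 0.47. The middle 90% of members lay between -0.76 and 0.90, and 94.5% were within 1 log2 unit of 0. Without Prr14-KO replicate 5 or 7 the median over the members was -0.02 or -0.01, so its sign rests on those libraries. A change smaller than this error at a single member was not detectable at this depth. Changes larger than the error also went uncalled. The Tmprss12 member, with a log2 change of 1.19 (SE 0.30), had an adjusted p of 0.413 in edgeR's test. The smallest change that could be called at a single member was not measured.

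**Figure D5:**
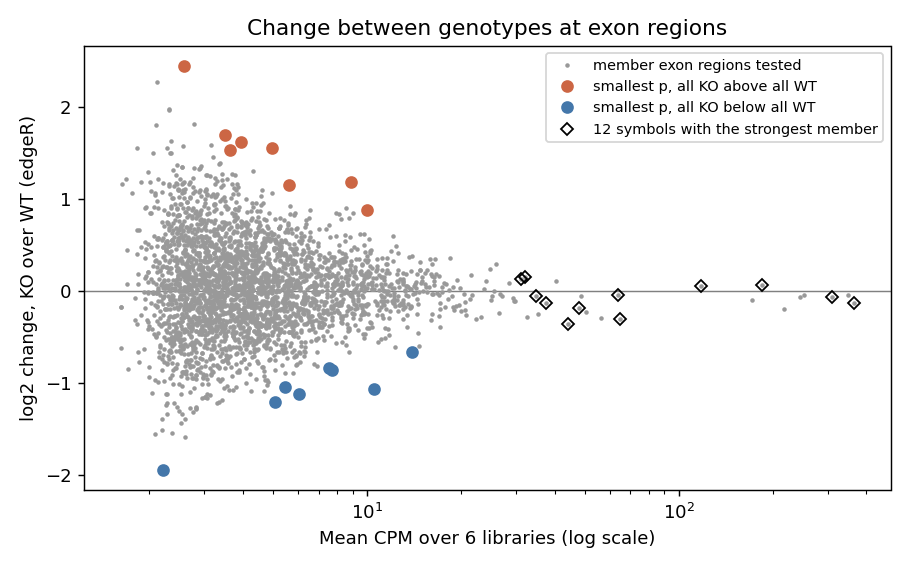
The log2 change of knockout over wild type from edgeR (vertical axis) by mean CPM over 6 libraries (horizontal axis, log scale) for the 3068 members tested. Orange and blue points are the 8 symbols in each direction with the smallest p among those whose genotypes do not overlap, and diamonds are the strongest regions under 12 symbols, which all lie near 0.

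The member with the smallest p lay in Tmprss12, a transmembrane serine protease of the male germ line, at chr15:100289016-100290367. It had 4.37, 6.67 and 5.18 CPM in wild types and 9.64, 14.6 and 12.9 in knockouts (5.41 ± 1.17 against 12.4 ± 2.51, SD, n = 3 each), a log2 change of 1.19 (SE 0.30) with an adjusted p of 0.413 in edgeR's test. All knockouts were above all wild types, as the choice of these members required. Over 14 alternative settings its log2 change ran from 1.05 to 1.37 and its adjusted p from 0.167 to 1.00.

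The region in Scaf1, an SR-related protein that binds RNA polymerase II, had 2.08, 1.72 and 3.67 CPM against 5.36, 6.47 and 10.4, a log2 change of 1.56 (SE 0.42) with an adjusted p of 0.955. The region in Musk, the receptor kinase that organizes the neuromuscular junction, at chr4:58343645-58344319 had 4.997, 2.15 and 3.24 CPM against 8.57, 9.02 and 5.76, a log2 change of 1.16 (SE 0.38). Musk is the one gene among these with a well-known role in muscle fibres. Its wild types spread over more than the gap between the genotypes. Other members of this kind were in Arap3, a regulator of small GTPases (log2 change 2.45), Ccr9, the gut-homing chemokine receptor (1.63), Bpifb2 (1.53) and Acsm1, a medium-chain acyl-CoA synthetase (0.89). The adjusted p was 0.998 at Musk and at each of these 4.

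Among members lower in the knockout, the smallest p was in Lrrn2, a neuronal leucine-rich repeat protein, at chr1:132938278-132939079. It had 15.2, 12.5 and 15.1 CPM in wild types and 7.93, 4.39 and 8.07 in knockouts (14.3 ± 1.54 against 6.80 ± 2.08, SD, n = 3 each), a log2 change of -1.06 (SE 0.27) with an adjusted p of 0.544 in edgeR's test. The region had 37, 19 and 35 counts in the knockouts, and the gap between the genotypes was wider than the spread within either. Over 14 alternative settings its log2 change ran from -1.20 to -0.84 and its adjusted p from 0.204 to 1.00.

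The region in Cacna1i, the pore of a T-type calcium channel, at chr15:80380423-80381457 had 13.7, 18.7 and 18.9975 CPM in wild types and 10.9, 12.02 and 9.45 in knockouts, a log2 change of -0.67 (SE 0.24). The region in Col23a1, a transmembrane collagen, had 9.58, 7.75 and 12.5 against 4.29, 6.47 and 5.76 CPM, a log2 change of -0.85 (SE 0.32). Both were separated by less than the spread within their wild types. The others were in Muc16, a giant cell-surface mucin (log2 change -1.94), Fstl4 (-1.21), Epha10, an ephrin receptor (-1.12), Gpr176, an orphan receptor (-1.04), and Fa2h, which makes hydroxylated sphingolipids of myelin (-0.83). The adjusted p was 0.998 at Cacna1i, Col23a1 and each of these 5. The members named here by their p kept their sign under every alternative in which they were fitted.

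Adding up the exon regions under each symbol gave no call. It added counts only for symbols with several regions, and 73.9% of the members' symbols had a single region. Of 2188 sums of members tested, 0 passed an adjusted p of 0.05 in edgeR's test, and the lowest was 0.355. Over all sums by symbol and annotation class, 0.0443% passed. At an unadjusted p under 0.05 there were 100 exon sums (4.57%, against 3.82% of all sums), 62 of them higher and 38 lower.

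Groups of genes were read by the gene holding the exon, beside the 3.29% of all members tested that were higher and 2.12% that were lower at an unadjusted p under 0.05. No member of any list passed the adjusted threshold. Of 127 members tested in solute carriers, ABC transporters and ion pumps, 4 were higher and 7 lower at the unadjusted level, with a median log2 change of 0.02. The 7 include the region of the ascorbate transporter Slc23a4 at chr6:34947510-34948835, with 14.4, 17.9 and 20.9 CPM against 12.9, 13.6 and 8.76. The Slc22a6 region whose bases are printed above is among them. Those that were higher include regions of Slc35f4, Slc13a3 and Slc1a5.

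Homeobox and other patterning genes had 21 members tested, 3 of them higher and none lower, with a median log2 change of 0.15. These 3, named for their p, were in the homeobox gene Hoxa3, the T-box gene Tbx2 and the forkhead gene Foxo3, which the list also took in. The Hoxa3 region had 6.87, 7.96 and 4.32 CPM in wild types and 5.57, 12.9 and 14.98 in knockouts, with Prr14-KO replicate 4 among the wild types. At all 3 the genotypes overlapped. Cadherins outside the protocadherin clusters had 35 tested, with 2 higher and none lower. The region of the giant cadherin Fat3 at chr9:15937913-15938915 had 5.62, 6.24 and 7.34 CPM against 9.43, 12.02 and 13.4, and a region of the planar polarity cadherin Celsr1 had 2.08, 2.80 and 1.30 against 4.93, 6.47 and 2.996.

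Collagens and other matrix genes had 103 members in 46 genes, 80 of them tested, with 2 higher (in Hspg2, perlecan, and in the laminin gene Lama1) and 2 lower (in Col23a1 and in Agrn, agrin, the nerve-derived ligand that acts through MuSK). The Agrn region at chr4:156176323-156177335 had 15.2, 15.5 and 13.6 CPM in wild types and 5.9995, 10.2 and 13.1 in knockouts. The median log2 change of the list was 0.03, that of all members. Giant or repetitive coding genes, among them mucins, dyneins and filaggrins, had 93 tested, with 1 higher (in Dnah14) and 5 lower (in Muc16, Dnah17, Dnah8, Rptn and Lrp2). Ion channels had 133 tested, with 1 higher (in Kcnu1) and 2 lower (in Cacna1i and Scn8a), and synaptic adhesion and receptor genes had 140, with 1 higher (in Cntnap5c) and 1 lower (in Grik4).

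Genes of the lamina, heterochromatin and mechanical sensing, the group nearest to the known role of PRR14, had 12 members in 3 genes, 8 of which were tested. One, in Piezo2, was higher at the unadjusted level, and 8 of the 12 regions were those of Piezo2 given above. The 12 regions summed to 44.1, 46.3 and 45.1 CPM in wild types and 51.9, 54.1 and 53.7 in knockouts, so the sums did not overlap, as those of Piezo2 alone did not. Every knockout was above every wild type at 4.7% of all single regions tested, but no such share was taken over sums. This list was read among many, and its sum was not tested. Genes of fibre identity and the MEF2 pathway, which PRR14 has been linked to in myoblasts, had 9 members, led by one in Hdac9, with 4.79, 4.30 and 4.32 CPM in wild types and 3.86, 5.55 and 8.53 in knockouts. Of the 5 tested, none was under 0.05 without adjustment. Imprinted genes had 7 tested, markers of immune, vascular and other non-muscle cells had 14, keratin and epidermal genes had 11, and immune receptor clusters had 31, with none under 0.05 without adjustment in any of these lists. Germline and placental families had 37 tested, with 2 higher, in Tmprss12 and Tcl1b1. Protease and inhibitor clusters had 15 tested, with 2 higher, in Wfdc8 and Serpina1d, and detoxification clusters had 34, with 1 higher, in Cyp4b1. Zinc finger factors whose names fall outside the left-out families had 48 tested, with 2 higher, in Zfhx4 and Zbtb7a, and 1 lower, in Sall1. The histone gene clusters had no member.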

How the data were processed

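H3K9me3 CUT&Tag libraries were grouped by the genotype labels into 3 Prr14-WT and 3 Prr14-KO. The submitters' processing notes name the build GRCm38 and the tools DESeq2 1.6.3, MACS2, BWA, bedtools, deepTools and Trimmomatic, and give neither settings nor whether regions were called on pooled libraries or whether positions count from 0 or 1. Positions are printed as deposited. The values under each library's name, per the file headers and the values themselves, are a raw whole-number count per region. The authors also deposited a normalised signal, the count divided by 1 factor per library, and a log2 fold change with p-values of their own comparison, which were read only for the counts of members credited to them. A deposited score, whose meaning is not given, was not used.

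The genotype test was edgeR 4.0.16 under R 4.3.3 (filterByExpr with a minimum count of 10 and a total of 15, TMM scaling, robust quasi-likelihood fit, Benjamini-Hochberg adjustment over all 153789 regions, threshold 0.05), and likewise sums per symbol and annotation class. The fit was tested on simulated data. Alternatives were RLE factors, library totals, other filters, no robust weighting, DESeq2 1.42.0, limma-voom (limma 3.58.1) and leaving out each library. Densities were compared within libraries by two-sided exact sign-flip tests, and sums between genotypes by exact permutation over 20 arrangements. Exon genes came from the transcripts in the table, and from RefSeq GRCm38.p6 spans where none matched; intron regions were assigned by RefSeq span. Members and gene lists were chosen with earlier results of these data known. Genes were named by smallest p among members whose genotypes do not overlap (8 symbols a direction, gene models passed over), by the 12 highest levels, by number of regions, by density and as the strongest of a list; others are said to be named after their values were seen. A few genes that the naming rule or a count would take are not reported here.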

Additional observations from a re-analysis of the deposited data

How the results depend on the processing

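No member region and no exon sum was called under any of the alternatives run, which were RLE factors, library totals, no filter, a mean count of 20 or more, DESeq2, limma-voom, no robust weighting, a threshold of 0.10 and leaving out each library. The lowest adjusted p of a member was 0.167, with a mean count of 20 or more. No paired analysis was possible because the genotypes share only the replicate number 4. The number of members with an unadjusted p under 0.05 was 78 with a mean count of 20 or more (6.08% of those tested, against 4.2025% of all regions) and ran from 159 to 277 when a library was left out (4.72% to 7.93%, against 3.61% to 5.05%). The difference in the share of counts, knockout minus wild type, was 0.03 percentage points and turned to -0.0056 without regions under 500 bp, and ran from -0.015 to 0.099 when a library was left out. The log2 density ratio of members to introns, near 0, turned to -0.0016 with protein-coding symbols only and to -0.0052 without the 1% of regions with the most counts, and ran from -0.017 to 0.021 when a library was left out. The ratio to intergenic regions ran from -0.057 to 0.0074, turning above 0 without Prr14-KO replicate 4. The ratio to zinc finger exons ran from -0.58 to -0.47 and that to UTR regions from 0.051 to 0.067, all with an exact p of 0.0625, the smallest 5 libraries allow. The ratio to UTR regions was 0.0055 without regions under 500 bp. Exon against intron density within genes was -0.048 with an exact p of 0.03125 with protein-coding symbols only, turned to 0.0025 without regions under 500 bp, and ran from -0.050 to -0.032 when a library was left out. In each case the cause was not tested. The median of 14 to 17 counts per member and library limits what a single exon can show.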
